A study of Mus musculus with 12 samples.

Results

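Replacement histone variants are encoded by genes that lie outside the histone clusters and are transcribed into polyadenylated mRNA. This report follows 10 such genes, taken by symbol from the 24495 genes of the read count table: the H2A variant genes H2afx, H2afz, H2afv, H2afy, H2afy2 and H2afj, the H3.3 genes H3f3a and H3f3b, and the linker histone genes H1f0 and H1fx. The cells were CCE-Nanog-GFP mESCs, a mouse embryonic stem cell line sorted for GFP, carried as a stable control line with a scrambled shRNA (labelled WT and scr, here shSC) and a stable line with an shRNA against the protease gene Ctsl (labelled KD, here shCTSL). Each line was sampled undifferentiated (Day 0) and as embryoid bodies (EBs) after 2 and 4 days in retinoic acid without LIF (Day 2 and Day 4), with 2 libraries in each of the 6 groups. Both lines passed through lentiviral infection and puromycin selection, and each condition is a single line, so that a difference between the lines and the effect of the knockdown cannot be told apart.

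Canonical histones are made in S phase from clustered genes whose mRNAs end in a stem-loop, whereas replacement variants are made throughout the cell cycle and enter chromatin through dedicated chaperones. H2A.X is the variant phosphorylated at DNA breaks, H2A.Z sits at promoters and enhancers, and macroH2A, which carries a large C-terminal macrodomain, is known from silent chromatin and as a barrier to reprogramming. H3.3 marks transcribed and repetitive chromatin, and H1.0, the product of H1f0, is known to accumulate as cells leave the cycle.

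The N-terminal tail of H2A is the substrate of cathepsin L on which the experiment centres. The lines that follow give, from mm9 and 5′ to 3′, the 30 bases of coding sequence around the codon of residue 23 of canonical H2A (Hist1h2ab, counted without the first methionine) and the matching codon of the 6 H2A variant genes in capitals, to show where the variants differ from it in bases and in coded residues.
Hist1h2ab: cgggccggcCTGcagttccccgtaggccgc
H2afx: cgcgccggcCTTcagttccctgtaggccgc
H2afj: cgcgcgggcCTGcagttccccgtgggccgc
H2afz: cgagccggcTTGcagttccctgtgggccgt
H2afv: cgagctgggCTCcagtttcctgtgggccgc
H2afy: aaggccggaGTCatcttccctgtgggacgc
H2afy2: agggccggcGTCatctttccagtaggccgg
The H2afx and H2afj stretches each differed from Hist1h2ab at 3 bases, H2afz at 5, H2afv at 7, H2afy2 at 9 and H2afy at 11. With positions counted from 1 at the first printed base, the H2afx changes were G3C, G12T and C21T, and those of H2afj were G3C, C6G and A24G. None of the 10 codons printed specified another residue than in Hist1h2ab in H2afx, H2afj, H2afz or H2afv, whereas 3 did in H2afy and 2 in H2afy2, which both had GTC in capitals. The Hist1h2ab stretch lies at chr13:23843062-23843091 on the + strand, that of H2afx at chr9:44142905-44142934 and that of H2afj at chr6:136756921-136756950, all within a single exon. The H2afy and H2afy2 stretches lie at chr13:56229729-56229758 and chr10:61220563-61220592 on the - strand, and those of H2afz and H2afv are each split by an intron.

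The libraries held 11171111 to 27155553 counts each, and the counts of the 10 genes ranged from 192 to 20003 in a library, so all of them passed the filter on low counts. Ctsl stood at 142 ± 7.15 normalized CPM (TMM-scaled CPM, mean ± SD, n = 2) in shSC and at 38.4 ± 1.23 in shCTSL at Day 0, and at 453 ± 42.9 and 255 ± 3.31 at Day 4. The 2 shCTSL Day 2 libraries stood apart from each other: the SD of their log2 ratio over genes was 0.604, against 0.178 to 0.269 in the other groups, and Rn45s took 3.43% of the counts of the first. All 6 embryonic stem cell markers fell by Day 2 and Day 4 in both lines (shSC sums of 5010 to 5160 normalized CPM at Day 0 and 286 to 328 at Day 4), and all 5 extraembryonic endoderm markers rose (8.77 to 9.36, then 354 to 379). Of 4 fibroblast markers, 3 rose and 1 fell in each of these comparisons (shSC sums of 10.1 to 10.6, then 49.1 to 56.4 normalized CPM), with Dcn at 0.031 on average at Day 0. In these bulk samples, fewer cells of a type and less RNA per cell cannot be told apart, and the part of changing cell composition in the results was not tested.

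To determine how the variant genes changed upon differentiation, each day was compared with Day 0 within each line by edgeR's quasi-likelihood test, and a gene was called at an adjusted p under 0.05 and a change of at least 1.5-fold. In shSC at Day 4, 6 of the 10 genes were called, with H2afy, H2afy2 and H1f0 higher and H2afx, H2afz and H2afj lower, where 60.8% of the 15532 genes tested were called (32.1% higher, 28.7% lower). In shCTSL at Day 4, 6 were called as well, H2afv, H2afy, H2afy2 and H1f0 higher and H2afx and H2afz lower, against 59.9% of all genes (32.3% higher, 27.6% lower). At Day 2 the count was again 6 in both lines (3 higher and 3 lower in shSC, 5 higher and 1 lower in shCTSL), against 54.6% of all genes in shSC (29.3% higher, 25.3% lower) and 55.5% in shCTSL (30.9% higher, 24.6% lower). The share of variant genes that changed therefore lay near that of all genes, and what follows concerns their directions and sizes. The Day 2 and Day 4 comparisons of a line share its Day 0 libraries.

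**Figure D1:**
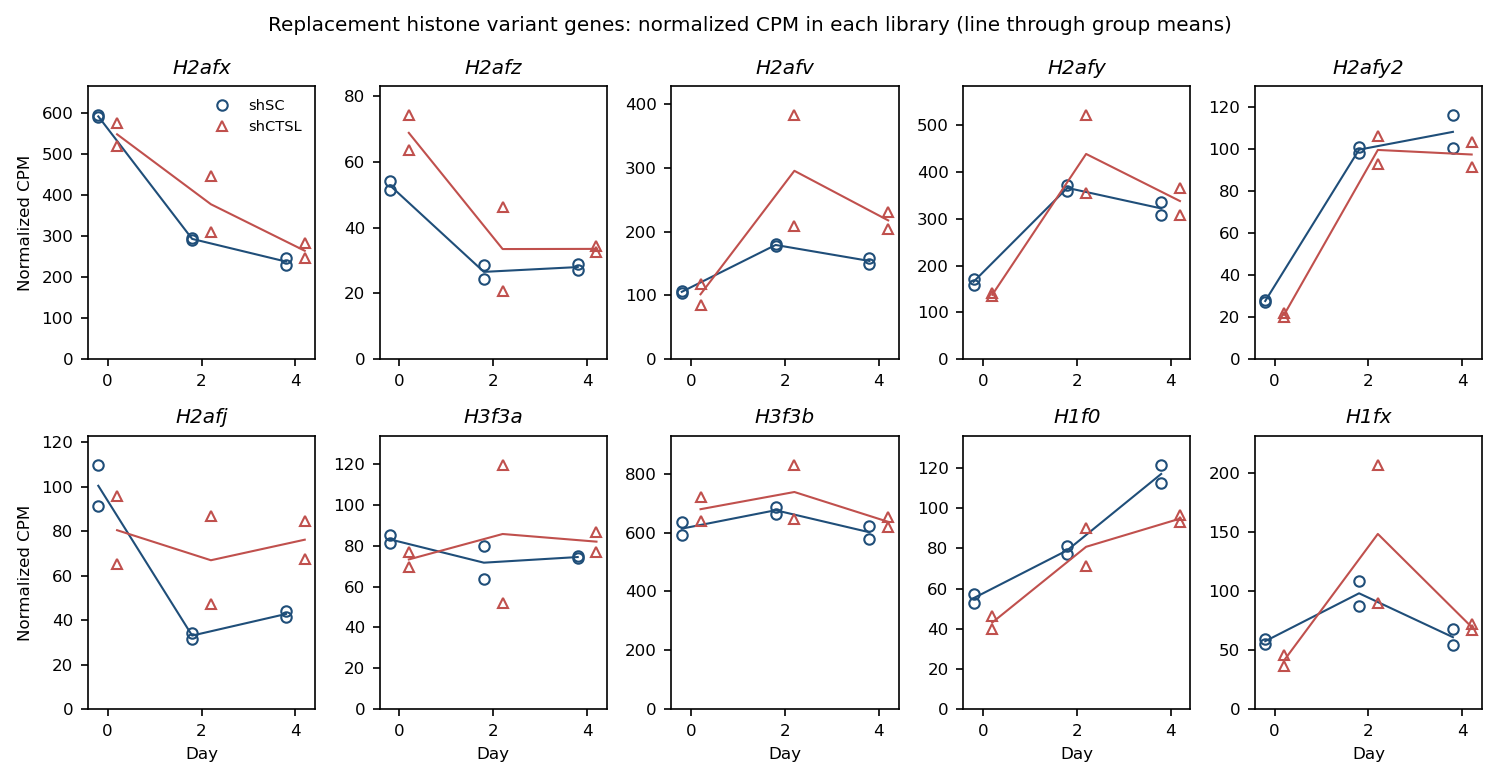
Normalized CPM (y axis, linear from 0) of each of the 10 genes against the day of differentiation (x axis), with 1 point per library, circles for shSC and triangles for shCTSL, and lines through the group means (n = 2). H2afy2 rises from 20.2 to 28.3 in the Day 0 libraries to 91.5 to 116 at Day 4, H2afx falls from 519 to 593 to 230 to 282, and the 2 shCTSL Day 2 triangles lie far apart for H1fx and H2afv.

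**Figure D2:**
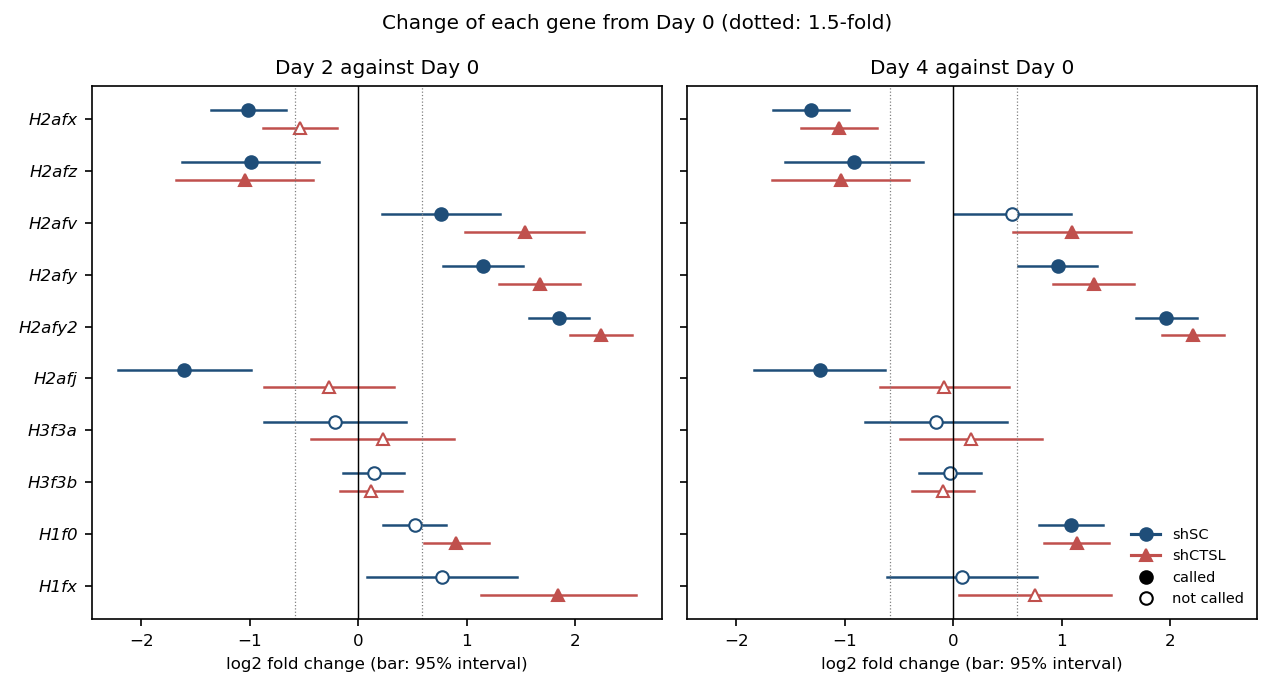
Log2 fold change of each gene (rows) against Day 0 (x axis), at Day 2 on the left and Day 4 on the right, with 95% intervals from edgeR, circles for shSC, triangles for shCTSL and filled symbols for called changes; dotted lines mark 1.5-fold. H2afx and H2afz lie left of 0 and H2afy, H2afy2 and H1f0 right of it in all 4 comparisons, and H2afj is the gene called in shSC alone on both days.

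H2afx (chromosome 9, 44142798 to 44144154 of mm9, + strand, 1 exon) encodes H2A.X and is transcribed into both a stem-loop and a polyadenylated mRNA, of which poly(A) selection keeps the latter. In shSC it stood at 588 and 593 normalized CPM at Day 0, at 294 and 291 at Day 2, and at 230 and 245 at Day 4. In shCTSL the values were 575 and 519, then 445 and 310, then 246 and 282. All Day 4 libraries lay below all Day 0 libraries. The Day 4 change was 2.49-fold downward in shSC (log2 change -1.31 ± 0.16 SE, adjusted p = 3.52e-05) and 2.07-fold in shCTSL (-1.05 ± 0.16, adjusted p = 0.000174). At Day 2 H2afx fell by 1.01 log2 units in shSC (adjusted p = 0.000265), whereas in shCTSL the change of -0.54 ± 0.16 (adjusted p = 0.0116) was under 1.5-fold and it reached -0.78 without the first Day 2 library (adjusted p = 1.98e-06) and -0.61 without the second Day 0 library (adjusted p = 0.0267), past the threshold, as it did with a GC offset (-1.28, adjusted p = 4.69e-06).

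H2A.Z is encoded by a pair of genes, H2afz (chromosome 3, 137527451 to 137529886, + strand) and H2afv (chromosome 11, 6327229 to 6344446, - strand), whose coding sequences of 387 bases differ at 81 bases and whose codons specify another residue at 3 of 129 positions. H2afz stood at 51.4 and 54.2 normalized CPM in shSC at Day 0, at 24.3 and 28.8 at Day 2 and at 28.9 and 27.1 at Day 4. In shCTSL it stood at 74.1 and 63.4, then 46.2 and 20.8, then 32.6 and 34.4. Every Day 2 and Day 4 library was below every Day 0 library. H2afz fell at Day 4 by 0.91 log2 units in shSC (SE 0.28, adjusted p = 0.0155) and by 1.04 in shCTSL (SE 0.28, adjusted p = 0.0082), and at Day 2 by 0.99 (adjusted p = 0.011) and 1.05 (adjusted p = 0.00844). These calls were near the threshold. With single libraries left out, the log2 changes in shSC were -1.12 to -0.87 at Day 2 and -0.96 to -0.86 at Day 4. Those in shCTSL were -1.69 to -0.58 and -1.15 to -0.92. The calls held in every setting but a log2 fold change of at least 1.5 and those that follow. At Day 4 they were lost in shSC without Day 0 replicate 2 (adjusted p = 0.0633), Day 4 replicate 1 (0.0604) or Day 4 replicate 2 (0.0765), and in shCTSL without Day 0 replicate 1 (0.0522). At Day 2 they were lost in shSC without Day 0 replicate 2 (adjusted p = 0.0552) or Day 2 replicate 1 (0.0782), and in shCTSL without Day 0 replicate 1 (0.0539) or, with a log2 fold change of -0.58, Day 2 replicate 2, as well as with only the groups compared (0.0843).

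H2afv had higher values after Day 0. In shSC it stood at 104 and 107 normalized CPM at Day 0, at 181 and 177 at Day 2 and at 150 and 158 at Day 4. In shCTSL it stood at 118 and 85.2, then 382 and 208, then 204 and 231. Again no Day 0 library reached any later library. In shCTSL H2afv rose 2.9-fold at Day 2 (log2 change 1.53 ± 0.25 SE, adjusted p = 0.000352) and 2.13-fold at Day 4 (1.09 ± 0.24, adjusted p = 0.00261). In shSC it rose by 0.76 ± 0.24 at Day 2 (adjusted p = 0.0189), a call lost without any of the 4 libraries compared (adjusted p = 0.0868 and 0.0586 without the first or second Day 0 library, 0.0685 and 0.0591 without the first or second Day 2 library). The Day 4 difference in shSC, 0.54 ± 0.24, did not pass (adjusted p = 0.0686), but was called by DESeq2 (0.60, adjusted p = 0.033), with RLE scaling (0.59, adjusted p = 0.0442) and with a length offset (0.66, adjusted p = 0.00201).

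As a share of the summed normalized CPM of H2afz and H2afv, H2afv held 57.3 to 66.9% in the 4 Day 0 libraries of both lines, 86.0 to 90.9% at Day 2 and 83.8 to 87.0% at Day 4. The mean rose from 63.0% ± 4.53 to 85.6% ± 1.37 (SD, n = 4), by 22.6 percentage points (exact two-sided permutation test over 70 arrangements, p = 0.0286, the smallest it can give, adjusted over 3 shares to 0.0429). The 4 libraries of a day come from both lines. With any of the 8 libraries left out the difference was 20.7 to 23.9 points and the adjusted p 0.0857. The test cannot give a p under 0.05 with a library left out, so this value is no sign of a weaker difference. Exact copies elsewhere in mm9 were found for 83.5% of the 50-base windows of the H2afz transcript and for 79.3% of those of 75 bases, and for none of H2afv at either length. Since alignments with a mapping quality under 10 had been removed, the level of H2afz, and with it the share, is uncertain, and the part of such copies in the change was not tested.

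The promoters of this pair are shown because at Day 2 H2afz was called lower and H2afv higher in both lines. Each line gives the 250 bases before the annotated start, 5′ to 3′ on the gene's strand, from the RefSeq promoters on GRCm38.p6 (H2afz at chr3:137864237-137864486, + strand, H2afv at chr11:6444444-6444693, - strand). CCAAT and GGGCGG on either strand stand in capitals, so that they read ATTGG and CCGCCC where they lie on the other strand.
H2afz upstream: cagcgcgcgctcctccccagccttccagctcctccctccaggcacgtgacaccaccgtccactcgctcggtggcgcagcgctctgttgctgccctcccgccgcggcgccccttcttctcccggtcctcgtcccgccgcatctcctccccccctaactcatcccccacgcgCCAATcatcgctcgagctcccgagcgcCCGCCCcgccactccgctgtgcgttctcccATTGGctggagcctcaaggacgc
H2afv upstream: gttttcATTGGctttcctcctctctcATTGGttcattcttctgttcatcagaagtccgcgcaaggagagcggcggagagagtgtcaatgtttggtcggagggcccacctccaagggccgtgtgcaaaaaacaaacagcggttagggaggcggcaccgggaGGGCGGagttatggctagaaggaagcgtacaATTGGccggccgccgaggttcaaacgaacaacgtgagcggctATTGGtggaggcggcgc
Promoters of 300 bases, which add 50 bases after the start, were found for 9 of the 10 genes, with H2afx the exception. CCAAT occurred in 6 of these 9, namely H2afz with 3 sites, H2afv with 4, H2afj with 3, H3f3b with 4, and H2afy2 and H3f3a with 1 each, and in 37.4% of 32851 RefSeq promoters. GGGCGG occurred in 7 of the 9 and in 35.7% of all promoters. TATAAA was found in H3f3b alone (13.6% of all), AGGTCA in H2afj (16.3%) and AAACACA in H3f3a (7.18%). All 5 motifs were counted on both strands, neighbouring GGGCGG matches in H3f3a share letters, and a match is a description and not a site of binding.

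The macroH2A genes H2afy (macroH2A1, chromosome 13, 56174980 to 56237722, - strand) and H2afy2 (macroH2A2, chromosome 10, 61201391 to 61246895, - strand) rose together. H2afy stood at 160 and 171 normalized CPM in shSC at Day 0, at 359 and 373 at Day 2 and at 309 and 335 at Day 4. In shCTSL it stood at 140 and 135, then 521 and 356, then 309 and 367. The Day 0 libraries were the lowest of both lines. H2afy rose 1.95-fold in shSC (log2 change 0.96 ± 0.16 SE, adjusted p = 0.000455) and 2.45-fold in shCTSL (1.29 ± 0.17, adjusted p = 6.14e-05) by Day 4, and by 1.15 and 1.67 on the log2 scale at Day 2 (adjusted p = 0.000169 and 1.33e-05).

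H2afy2 had the largest change of the 10 genes in each of these 4 comparisons. In shSC it went from 27.2 and 28.3 normalized CPM at Day 0 to 98.4 and 101 at Day 2 and 100.4 and 116 at Day 4. In shCTSL it went from 22.0 and 20.2 to 93.0 and 106, and to 91.5 and 104. The Day 2 and Day 4 libraries overlapped with each other and lay far above Day 0. The rise at Day 4 was 3.9-fold in shSC (log2 change 1.96 ± 0.13 SE, adjusted p = 3.89e-07) and 4.61-fold in shCTSL (2.21 ± 0.13, adjusted p = 2.3e-07). In shSC it was also the one member called when a log2 fold change of at least 1.5 was asked for at Day 4. The 2 coding sequences share 67.3% of their 1119 bases, and 9.1% of the 50-base windows of H2afy2 had an exact copy elsewhere. In addition, 244 exonic bases of H2afy2 overlap a gene on the opposite strand.

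As a share of H2afy and H2afy2 together, H2afy2 took 13.0 to 14.6% of the normalized CPM at Day 0, 15.1 to 23.0% at Day 2 and 22.0 to 25.7% at Day 4. The increase of 9.96 percentage points, from 13.8% ± 0.682 to 23.8% ± 1.67 (SD, n = 4), gave p = 0.0286 in the exact two-sided permutation test and an adjusted p of 0.0429. It was 9.31 to 10.5 points, with an adjusted p of 0.0857, when any of the 8 libraries was left out. Here too the test could not have passed with a library left out. The lowest Day 2 share, 15.1%, came from the first of the shCTSL libraries that stood apart.

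**Figure D3:**
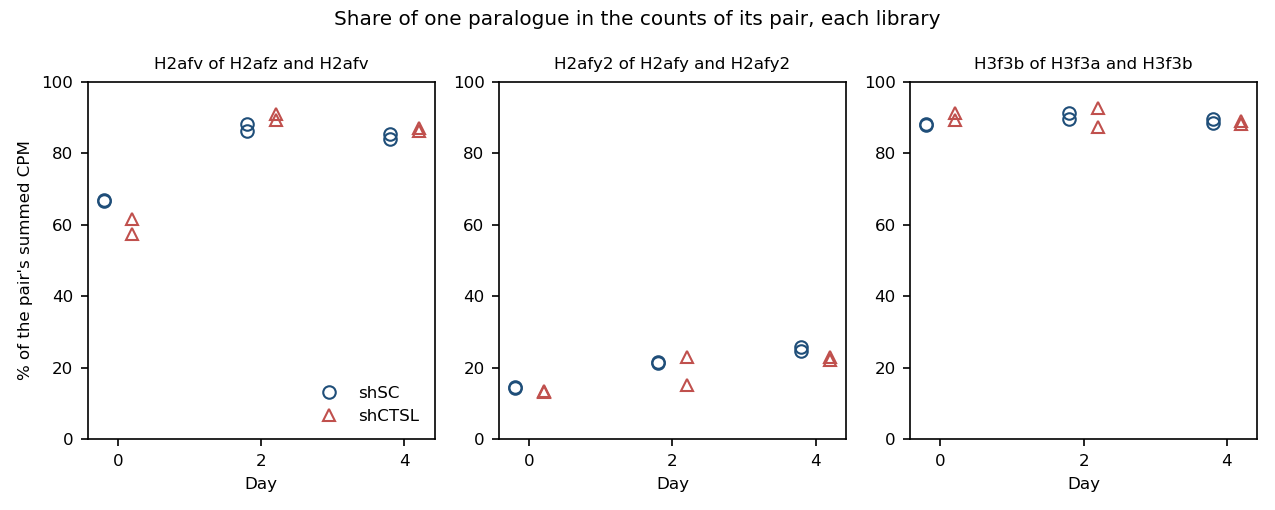
Share of H2afv, H2afy2 and H3f3b (panels) in the summed normalized CPM of its pair (y axis, percent from 0 to 100) against the day (x axis), with 1 point per library, circles for shSC and triangles for shCTSL. The H2afv share moves from 57.3 to 66.9% at Day 0 to 83.8 to 87.0% at Day 4, and the H3f3b share stays between 87.4 and 92.6% in all 12 libraries.

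H2afj (chromosome 6, 136756769 to 136758595, + strand, 1 exon), whose product H2A.J differs from canonical H2A mainly at its C-terminus, fell in shSC but was not called in shCTSL. In shSC it stood at 91.2 and 110 normalized CPM at Day 0, at 34.4 and 31.7 at Day 2 and at 41.3 and 44.3 at Day 4, so that the later libraries were all below Day 0. In shCTSL it stood at 95.7 and 65.3, then 86.9 and 47.1, then 67.7 and 84.8, and the days overlapped. H2afj fell 3.04-fold at Day 2 (log2 change -1.60 ± 0.27 SE, adjusted p = 0.000523) and 2.35-fold at Day 4 (-1.23 ± 0.27, adjusted p = 0.0023) in shSC. In shCTSL the values were -0.27 ± 0.27 (95% interval -0.87 to 0.33, adjusted p = 0.397) and -0.08 ± 0.27 (-0.68 to 0.51, adjusted p = 0.8). Without its first Day 0 library the Day 2 and Day 4 values became 0.03 and 0.22, and without the first Day 2 library H2afj was called lower at Day 2 (-0.74, adjusted p = 0.00144).

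H3.3 is encoded by H3f3a (chromosome 1, 182730963 to 182744074, - strand) and H3f3b (chromosome 11, 115883226 to 115889276, - strand), whose coding sequences of 411 bases differ at 95 bases while none of the 137 codons specifies another residue. Neither gene was called in any comparison of days or lines with all 12 libraries. H3f3a stood at 81.2 and 85.2 normalized CPM in shSC at Day 0, 63.7 and 79.8 at Day 2 and 75.2 and 73.9 at Day 4, and in shCTSL at 69.8 and 76.9, then 120 and 52.1, then 77.2 and 86.9. H3f3b stood at 592 and 635 in shSC at Day 0, 664 and 688 at Day 2 and 578 and 624 at Day 4, and in shCTSL at 719 and 640, then 829 and 647, then 621 and 653. The shCTSL Day 2 libraries were both the highest and the lowest of the 12 for H3f3a. The shCTSL Day 2 change of H3f3a, 0.22 ± 0.30 (SE, adjusted p = 0.528), became -0.45 without the first of them (adjusted p = 0.00357, under 1.5-fold) and 0.71, called, without the second (adjusted p = 4.17e-05).

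The Day 4 change of H3f3b had 95% intervals of -0.31 to 0.25 in shSC and -0.38 to 0.19 in shCTSL on the log2 scale, which leaves out a change of 1.5-fold. Those of H3f3a were wider, -0.81 to 0.50 and -0.49 to 0.82. H3f3b made up 89.1% ± 1.47 of the normalized CPM of the pair at Day 0 and 88.8% ± 0.514 at Day 4 (SD, n = 4, exact two-sided permutation test, p = 0.771). Exact copies elsewhere were found for 32.4% of the 50-base windows of H3f3a and 25.6% of those of H3f3b (29.2% and 18.2% at 75 bases), and 798 exonic bases of H3f3a overlap genes on the opposite strand, so their levels are uncertain.

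Of the linker histones, H1f0 (chromosome 15, 78859152 to 78859689, + strand, given there as a pseudogene by GENCODE M1) rose by Day 4 in both lines. It stood at 53.0 and 57.4 normalized CPM in shSC at Day 0, 77.1 and 81.1 at Day 2 and 122 and 113 at Day 4, and in shCTSL at 46.2 and 40.0, then 90.3 and 71.3, then 93.2 and 96.5. In neither line did the libraries of any 2 days overlap. H1f0 rose 2.12-fold by Day 4 in shSC (log2 change 1.08 ± 0.13 SE, adjusted p = 4.11e-05) and 2.2-fold in shCTSL (1.14 ± 0.13, adjusted p = 3.27e-05). At Day 2 it rose by 0.90 ± 0.13 in shCTSL (adjusted p = 0.000198), which became 0.48 and was no longer called with a GC offset. For H1f0 the GC offset, like the length offset below, used the pseudogene entry of 534 exonic bases, so these offset values are uncertain. In shSC the Day 2 change of 0.52 ± 0.13 (adjusted p = 0.0059) and the change from Day 2 to Day 4 of 0.57 ± 0.13 (adjusted p = 0.00851) both missed 1.5-fold. In shCTSL the change from Day 2 to Day 4 was 0.23 ± 0.13 (adjusted p = 0.211) and was not called. In shSC the Day 2 change reached 0.87 with a length offset (adjusted p = 0.000158) and 0.62 without the second Day 0 library (adjusted p = 0.0158), and the change from Day 2 to Day 4 reached 0.60 and 0.62 without the second Day 2 or the second Day 4 library (adjusted p = 0.0485 and 0.0296).

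H1fx (chromosome 6, 87930416 to 87931476, - strand, 1 exon), which encodes H1x, had its highest values at Day 2. In shSC it stood at 55.3 and 59.7 normalized CPM at Day 0, 87.7 and 108 at Day 2 and 54.1 and 67.7 at Day 4. In shCTSL it stood at 46.0 and 36.3, then 207 and 90.0, then 67.0 and 72.0. Day 2 lay above the other days in both lines, and the first shCTSL Day 2 library stood over all others. H1fx rose 3.59-fold at Day 2 in shCTSL (log2 change 1.84 ± 0.32 SE, adjusted p = 0.000591). Between Day 2 and Day 4 it fell by 1.09 there (SE 0.31, adjusted p = 0.0245), the one member called from Day 2 to Day 4 in shCTSL, where 23.4% of all genes were, while in shSC no member was called and 23.8% of all genes were (edgeR, with 1 member at an unadjusted p under 0.05 and none by DESeq2). The shCTSL fall came to -0.40 and was not called without the first Day 2 library (3 other members then were, H2afz, H2afj and H3f3a, all higher at Day 4, where 25.3% of all genes were called). Without the second, H2afx, H2afv and H2afy were called lower beside it, where 39.2% of all genes were called. The fall also lost its call without the first (adjusted p = 0.135) or second (0.0939) Day 4 library. In shSC the difference between Day 2 and Day 4 was -0.69 ± 0.31 (adjusted p = 0.126), which was called when low counts were not filtered out (adjusted p = 0.0275), with only the groups compared (0.000273) and without both shCTSL Day 2 libraries (0.000124). In shSC the Day 2 change was 0.77 ± 0.31 (adjusted p = 0.0515), and at Day 4 the values were 0.08 ± 0.31 in shSC and 0.75 ± 0.32 in shCTSL (adjusted p = 0.83 and 0.0557). DESeq2 called the Day 2 rise in shSC (0.82, adjusted p = 0.0178) and the Day 4 rise in shCTSL (0.79, adjusted p = 0.025). With edgeR both were called with RLE scaling, a length offset, no low-count filter or only the groups compared. They were also called without both shCTSL Day 2 libraries (edgeR adjusted p = 1.52e-05 and 5.45e-05). In the remaining settings neither was called. H1fx overlaps 213 exonic bases of a gene on the opposite strand.

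Per kilobase of transcript, H2afx was the highest of the 10 genes at Day 0 in shSC (435 normalized CPM per kb), followed by H3f3b (244), H2afy (80.9), H2afv (64.5), H2afj (55.0), H1fx (54.2), H2afz (49.4), H3f3a (29.3), H1f0 (24.1) and H2afy2 (12.8). Neighbours in this order did not overlap between their 2 libraries each, other than H2afj and H1fx. At Day 4 H3f3b led (239), before H2afx (175), H2afy (157) and H2afv (94.1). H1fx (57.4), H1f0 (51.1) and H2afy2 (49.8) followed with overlapping libraries. H3f3a (26.2) and H2afz (26.2), which overlapped, and H2afj (23.4) came last. In shCTSL the leading 3 genes were the same as in shSC on both days, with H2afx at 403 and H3f3b at 270 at Day 0 and at 194 and 253 at Day 4. These lengths were those of the longest coding transcript, or for H1f0 the RefSeq gene span of 2293 bases, and transcripts of other lengths would move the order. So could the uncertain levels of H2afz, H3f3a and H3f3b, whose transcripts have exact copies elsewhere in part. The H2afx level covers its polyadenylated mRNA and largely leaves out the stem-loop form.

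Among the 6 H2A variant genes, H2A.X mRNA made up 62.4% of the summed normalized CPM per kb in shSC at Day 0 and 33.3% at Day 4, and 62.0% and 31.9% in shCTSL (means of 2 libraries). MacroH2A mRNA was 13.4% at Day 0 and 39.4% at Day 4 in shSC, and 11.9% and 34.4% in shCTSL. For H2A.Z mRNA the corresponding values were 16.3%, 22.9%, 19.4% and 26.9%. The H2A.J share was 7.87% at Day 0 and 4.45% at Day 4 in shSC, against 6.71% and 6.82% in shCTSL. These shares are a description, and most of the shift was already present at Day 2, with macroH2A at 37.9% and 33.5%. Every share rests in part on the level of H2afz, which is uncertain because most of its windows have exact copies elsewhere. The H2A.X share covers the polyadenylated mRNA of H2afx and largely leaves out its stem-loop mRNA.

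**Figure D4:**
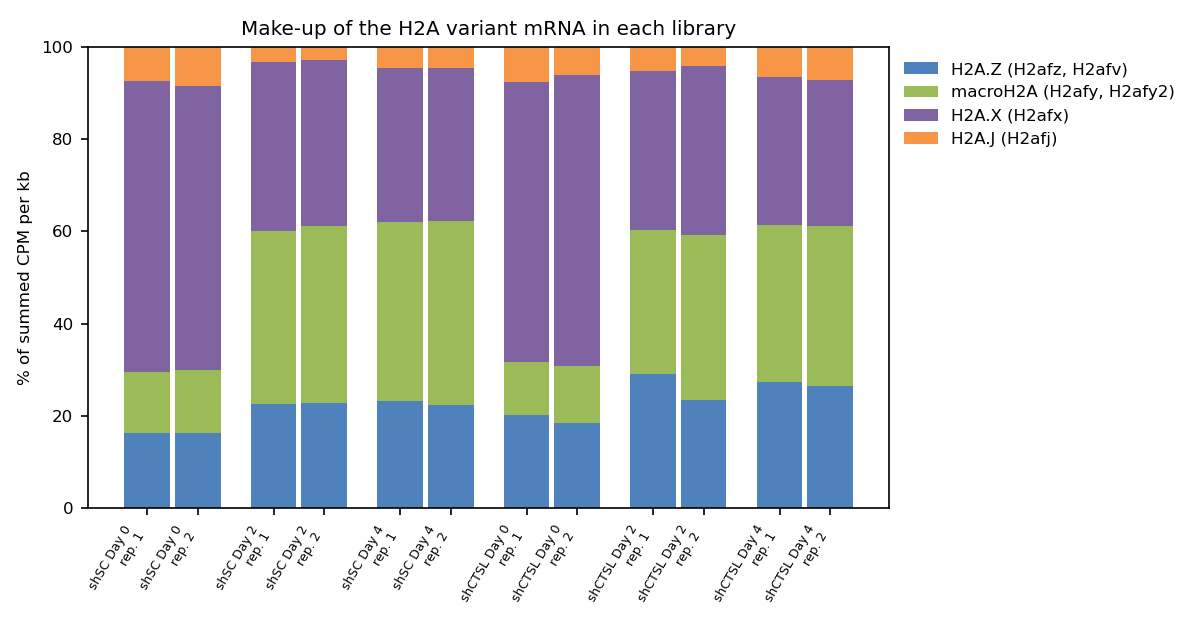
Stacked bars for each of the 12 libraries giving the percent (y axis, 0 to 100) of the summed normalized CPM per kb of the H2A variant genes that came from H2A.Z (H2afz and H2afv), macroH2A (H2afy and H2afy2), H2A.X (H2afx) and H2A.J (H2afj). H2A.X falls from 60.9 to 63.2% of the Day 0 bars to 31.7 to 33.4% of the Day 4 bars, and macroH2A takes 34.1 to 39.9% at Day 4. The level of H2afz, and with it every percentage, is uncertain. The H2A.X part largely leaves out the stem-loop mRNA of H2afx.

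To ask whether CTSL knockdown changed the variant genes, the lines were compared on each day. None of the 10 genes was called at Day 0, Day 2 or Day 4 with edgeR, where 0.0386%, 0.0644% and 0.0129% of all genes were called, and 2, 3 and 2 members had an unadjusted p under 0.05. DESeq2 called none of the members at Day 0, H2afj at Day 2 and none at Day 4. Averaged over the days no member was called (0.27% of all genes, 4 members at an unadjusted p under 0.05, none by DESeq2). Nor was a member called for the difference between the lines in the change from Day 0 to Day 4 (0.00644% of all genes, 1 member at an unadjusted p under 0.05, none by DESeq2) or from Day 2 to Day 4 (0% of all genes, none at an unadjusted p under 0.05 and none by DESeq2). The same fit called Ctsl lower in shCTSL at Day 0 (-1.89, adjusted p = 0.00246) and Day 2 (-1.06, adjusted p = 0.0342), but neither at Day 4 (-0.83, adjusted p = 0.0896) nor for the difference in the change from Day 0 to Day 4 (1.06, adjusted p = 0.387).

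The member with the largest difference at Day 2, at Day 4 and on average over all days was H2afj. Its shCTSL libraries at Day 2 (86.9 and 47.1 normalized CPM) and Day 4 (67.7 and 84.8) lay above those of shSC (34.4 and 31.7, then 41.3 and 44.3), while the lines overlapped at Day 0. As a log2 fold change of shCTSL over shSC with its SE, the difference came to -0.32 ± 0.27 at Day 0 (adjusted p = 0.906), to 1.01 ± 0.27 (adjusted p = 0.222) at Day 2, and to 0.83 ± 0.27 at Day 4 (95% interval 0.23 to 1.44, adjusted p = 0.313). The change from Day 0 to Day 4 differed between the lines by 1.15 ± 0.38 (SE, adjusted p = 0.659). The fit takes its spread from all 12 libraries, those of shCTSL Day 2 included. With both of them left out, H2afj was called at Day 4 (0.85, adjusted p = 0.00144) and for the change from Day 0 to Day 4 (1.14, adjusted p = 0.0126), where 5.92% and 1.67% of all genes were called. With only the groups compared, the values were 0.86 (adjusted p = 0.00178, 4.83% of all genes) and 1.15 (adjusted p = 0.0305, 0.988%). At Day 2 H2afj was called by DESeq2 (0.98, adjusted p = 0.0362, 0.919% of all genes) and without a filter on low counts (0.99, adjusted p = 0.039, 0.264%). Over all alternatives the adjusted p at Day 4 ranged from 0.00144 to 0.956.

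At Day 0, H2afy2 and H1f0 were lower in shCTSL by 0.39 and 0.36 on the log2 scale with no overlap between the lines (log2 changes -0.39 ± 0.13 and -0.36 ± 0.13 SE, adjusted p = 0.495 and 0.598). The lines did not overlap at Day 0 for H2afx, H2afz, H2afy, H3f3a, H3f3b and H1fx either. How many of all genes were likewise apart at Day 0 was not counted. With 2 libraries a line, the lack of overlap is therefore no sign of a difference between the lines. H2afz was 0.38 ± 0.28 and H1fx -0.48 ± 0.32 (adjusted p = 0.889 and 0.848). At Day 2, H2afx and H2afv differed by 0.36 ± 0.15 and 0.72 ± 0.24 (adjusted p = 0.247 and 0.222), and at Day 4 H2afv by 0.50 ± 0.24 and H1f0 by -0.30 ± 0.13 (adjusted p = 0.434 and 0.395). H3f3b lay within -0.20 to 0.37 at Day 4 (95% interval), which leaves out a difference of 1.5-fold. Without the second shCTSL Day 2 library, 6 members were called higher in shCTSL at Day 2 (H2afx, H2afz, H2afv, H2afj, H3f3a and H1fx), but then 31.7% of all genes were called and a lone library stood for the group, assumed to vary as the others do. Without the first, no member was called and 0.61% of all genes were. Without the second, H2afj was also called for the mean over the days (0.64, adjusted p = 1.73e-05), where 7.7% of all genes were called. The difference between the lines in the change from Day 2 to Day 4 then had 3 members called (H2afv, H3f3a and H1fx), against 14.7% of all genes, and without the first library 2 (H2afz and H3f3a), against 3.57%, with H3f3a of opposite sign.

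**Figure D5:**
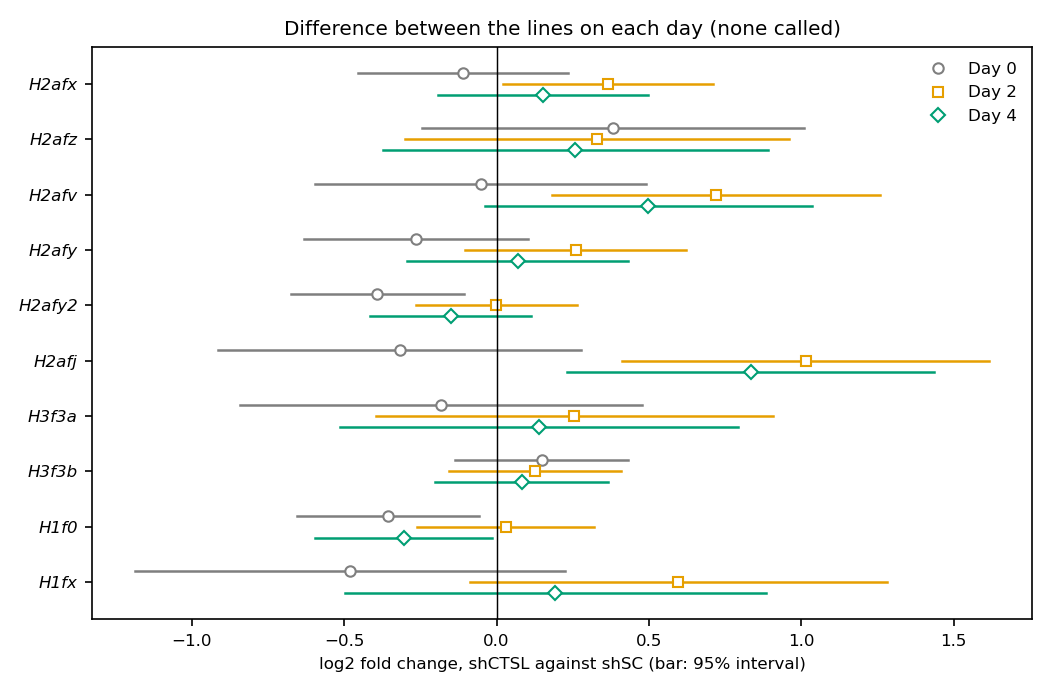
Log2 fold change of shCTSL against shSC (x axis) for each gene (rows) at Day 0 (circles), Day 2 (squares) and Day 4 (diamonds), with 95% intervals from the fit to all 12 libraries. No difference is called, and H2afj at Day 2 (1.01) and Day 4 (0.83) lies farthest to the right.

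Across the 12 libraries several of the genes varied together (Pearson's r of log2 normalized CPM, a description over libraries that share lines and days). The first shCTSL Day 2 library held the highest value of H2afv, H2afy, H3f3a, H3f3b and H1fx, and its part in their r was not tested. H2afy and H2afy2 were at 0.95 with each other, H2afy and H2afv at 0.92, and H2afx and H2afz at 0.86. H2afx and H2afy2 stood at -0.89, whereas H2afz and H2afv were at -0.50. Of all genes tested, Pkm (0.996) and Exosc5 (0.996) were most like H2afx, Mtch2 and Snrpb2 (both 0.99) most like H2afz, and B9d2 (0.989) most like H2afv. Mlycd (0.993) was nearest to H2afy, Rbm24 (0.995) to H2afy2, Ssbp4 (0.965) to H2afj, Selenoo (0.982) to H1f0 and Adprh (0.977) to H1fx. The H3.3 genes had weaker nearest partners, with 4921524J17Rik at 0.936 for H3f3a and Pemt at 0.933 for H3f3b.

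The factors that place or remove H2A.Z and H3.3 were read from lists chosen with earlier results of these data known. Of 12 genes for H2A.Z deposition and removal, 7 fell and none rose in shSC at Day 4, where 28.7% of all genes fell, and 7 fell and 1 rose in shCTSL, where 27.6% fell. The ATPases Ruvbl1 and Ruvbl2, shared by the SRCAP and p400 complexes, went from 92.5 to 24.5 and from 435 to 120 normalized CPM in shSC (log2 changes -1.92 ± 0.18 and -1.85 ± 0.16 SE, adjusted p = 6.14e-06 and 3.69e-06). Ino80 (-1.31), Znhit1 (-1.26) and Actr6 (-1.07) fell as well, and Srcap itself, at -0.15 (adjusted p = 0.624), was not called. The list's median was -0.65, against 0.03 over all genes.

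Of 7 H3.3 chaperone genes, 3 fell and 1 rose in shSC at Day 4, where 28.7% of all genes fell and 32.1% rose. In shCTSL 4 fell and 1 rose, where 27.6% of all genes fell and 32.3% rose. These shares of all genes stand beside the list counts that follow as well. The HIRA complex subunit Ubn1 rose from 57.2 to 143 normalized CPM (log2 change 1.33 ± 0.11 SE, adjusted p = 1.97e-06), while Asf1a (-0.77, adjusted p = 0.00203), Hira (-0.63, adjusted p = 0.000115) and Daxx (-0.61, adjusted p = 0.000174) fell in shSC. Of 12 general or replication-coupled chaperone genes, 7 fell and none rose in shSC, among them Asf1b (-1.66 ± 0.13) and Npm1 (-1.63 ± 0.23), and 8 fell in shCTSL. All 16 S-phase genes fell in shSC by Day 4, Rrm2 from 419 to 119 and Mcm5 from 1066 to 303 normalized CPM, and 15 of 16 in shCTSL. Their summed level was 7780 to 7820 normalized CPM in the shSC Day 0 libraries and 2850 to 3030 at Day 4, beside the falls of H2afx and H2afz and the rise of H1f0, and its part in these was not tested. No gene of these lists was called between the lines on any day.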

How the data were processed

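RNA was measured in 12 libraries of CCE-Nanog-GFP mESCs. The authors selected poly(A) RNA, made directional libraries, aligned reads to mm9 with STAR 2.3.0e, dropped alignments of mapping quality under 10 with SAMtools 0.1.19 and deposited unnormalized read counts per RefSeq gene from featureCounts 1.6.2; reads were single-end and 75 bases long, and the strand setting of the counting is not stated. Groups came from the labels' genotype and stage.

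The members and gene lists were chosen with earlier results of these data known. Genes with low counts were removed by filterByExpr (minimum count 10), leaving 15532 of 24495. TMM-normalized counts of all 12 libraries were fitted in edgeR 4.0.16 (quasi-likelihood, 1 mean per group, 6 residual degrees of freedom), with Benjamini-Hochberg adjustment over all genes tested. Called means an adjusted p under 0.05 and at least 1.5-fold, a reading of the study's cutoff, which can also be taken as a log2 fold change of 1.5. SEs are derived from the F statistics, and 95% intervals from the moderated degrees of freedom. The study calls its replicates biological, but the labels do not name separate cultures, so p-values measure only the spread between these libraries. Shares of a pair's CPM were compared by exact permutation over libraries. Alternatives were RLE scaling, other filters, DESeq2 1.42.0, GC and length offsets (90.3% of tested genes had both values), a replicate block, only the groups compared, other fold cutoffs and leaving out libraries. For H1f0 the offsets used the length and GC of its pseudogene entry. Named were the 10 members, up to 2 genes per direction and list with the largest changes, and the 3 genes most like each member; Srcap, Ino80, Znhit1, Actr6 and Daxx were named after their values were seen. Positions and lengths came from GENCODE M1 on NCBIM37 (mm9), promoters from RefSeq on GRCm38.p6, and copies from BLAST+ 2.17.0, with 75-base windows added after the values were seen.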

Additional observations from a re-analysis of the deposited data

How the results depend on the processing

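Of 924 alternative values of the 61 member fold changes printed, 829 kept direction and side of the threshold, 35 lost the call, 44 gained it and 16 reversed; where values moved, the cause was not tested unless the setting itself shows it. With a log2 fold change of at least 1.5, members called fell to 2 (shSC Day 2), 1 (shSC Day 4), 1 (shCTSL Day 4) and 0 (shCTSL Day 4 against Day 2). The share of all genes called at that cutoff is not given, so these counts cannot be set against it. For shSC Day 4 against Day 2 the count was 1: H1fx with no low-count filter (17.6% of all genes called), only the groups compared (28.8%) or without both shCTSL Day 2 libraries (28.1%), and H1f0 with a GC (24.1%) or length offset (25.5%) or no fold cutoff (30.1%); for shCTSL it was 2 with no fold cutoff and 0 with only the groups compared. For these shCTSL counts no share of all genes is given. Between the lines the count was 1 at Day 2 with no low-count filter or DESeq2, and 1 at Day 4 and for the change from Day 0 to Day 4 with only the groups compared or without both shCTSL Day 2 libraries.

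Leaving out each library in turn gave 4 to 5 members called for shSC Day 2, 5 to 8 for shCTSL Day 2, 5 to 6 for Day 4 in either line, 0 to 1 and 0 to 4 for Day 4 against Day 2 in shSC and shCTSL, 0 to 6 between lines at Day 2, 0 to 1 for their mean, and 0 to 3 for the difference in the Day 2 to Day 4 change. For shCTSL Day 4 against Day 2 it was 3 without the first and 4 without the second shCTSL Day 2 library, and the 6 and the 3 were without the second. For shSC Day 4 against Day 2 the 1 was without the second library of either day. Where no share of all genes was printed above, these counts cannot be set against one. The share differences ranged from 20.67 to 23.85 (H2afv), 9.309 to 10.54 (H2afy2) and -0.7589 to 0.3129 points (H3f3b), and without the shCTSL line were 17.93, 10.76 and 0.9009, with 2 libraries a day, too few for the test to pass. Reversals were all of values not called: H3f3b at Day 4 in shSC became 0.02 with RLE or DESeq2 (0.0185 and 0.0239), 0.0022 with only the groups compared, and -0.0844 to 0.0419 over single libraries; H1fx at Day 4 in shSC became -0.37 with the GC offset and -0.0882 to 0.2355 over single libraries. Over single libraries in shCTSL, H2afj ranged from -0.74 to 0.10 (Day 2) and -0.33 to 0.22 (Day 4), H3f3a from -0.45 to 0.71 and H3f3b from -0.0295 to 0.2899 (Day 2). The difference between lines in the Day 2 to Day 4 change ranged from -0.88 to 0.32 (H1fx) and -0.21 to 0.15 (H3f3b).

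With a replicate block, member counts were 6 for each day against Day 0 in both lines, 1 for shCTSL Day 4 against Day 2 and 0 elsewhere, and no call changed. Of all genes, 54.1% were then called in shSC at Day 2, 60.3% in shSC at Day 4 and 55.1% in shCTSL at Day 2. The numbers do not pair the libraries: correlations of deviations over 15 pairs of groups ran from -0.36 to 0.16, with 1 above 0.1.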

Other observations

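Few of the other variant genes had enough counts to be tested. Of 8 further variant genes, 7 were in the table and 2 were tested. H2afy3 rose from 1.32 to 4.48 normalized CPM in shSC by Day 4 (log2 fold change 1.77 ± 0.30 SE, edgeR adjusted p = 0.000426), in the direction of H2afy and H2afy2 but at a far lower level. Cenpa, the centromeric H3 variant, fell from 151 to 61.0 (-1.31 ± 0.21, adjusted p = 0.000261).

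The clustered histone genes, whose stem-loop mRNAs poly(A) selection largely misses, summed to 26.9 to 76.4 normalized CPM over 69 genes in any library, and 24 of them were tested. In shSC at Day 4, 2 rose and 2 fell, against 32.1% and 28.7% of all genes, and in shCTSL 2 rose and 7 fell, against 32.3% and 27.6%. The 5 clustered linker histone genes had no call in any comparison of a later day with Day 0 or between the lines on a day. The widest range of the clustered sum within a group was in shCTSL Day 2, at 31.9 to 76.4, the libraries that also differ most for H1fx and H2afv.

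Of 4 neural markers, 2 rose and 1 fell in shSC at Day 4, where 32.1% of all genes rose and 28.7% fell. In shCTSL 3 rose and 1 fell, where 32.3% of all genes rose and 27.6% fell. Pax6 went from 11.0 to 36.2 normalized CPM in shSC (log2 fold change 1.71 ± 0.19) and Tubb3 from 170 to 11.1 (-3.94 ± 0.20). Of 3 mesoderm markers tested, 2 rose in shSC, with Kdr going from 2.18 to 109 (5.64 ± 0.35). In shCTSL 2 of these rose and 1 fell.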
